A study of Homo sapiens with 6 samples.

Results

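Of the genes connected with the cellular stress response, 6 were followed through the DU145 transcriptome, namely GDF15, ADM2, FGF21 and INHBE, which encode secreted hormones or growth factors, VLDLR, which encodes a lipoprotein receptor, and NUPR1, which encodes a small nuclear protein. They were taken by symbol, and all 6 were found among the 19727 genes of the deposited expression table. The 6 were chosen by name, after the FPKM values of these same 6 libraries had shown a rise of genes driven by the transcription factor ATF4 in 1 group, so the group difference counts among the values that chose them. Their levels and their differences between the groups are therefore given as a description, without a test, and the tests concern genes outside the 6.

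The cells were DU145, an established line of human prostate cancer. The study made DU145 cells that overexpress circCSPP1, a circular RNA of the CSPP1 gene, from a lentivirus vector (lentivirus-circCSPP1) and compared them with cells given a control vector (lentivirus-NC). Each group had 3 libraries of polyadenylated RNA sequenced in paired-end mode, the cells of both groups carried a lentivirus, and lentivirus-treated cells were selected with puromycin. No time point is given for this experiment, and nothing states that the 3 libraries of a group came from separate cultures, so the p-values below measure the spread between these libraries, which may be technical.

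The integrated stress response is a set of kinases that slow protein synthesis when amino acids run short, when unfolded proteins build up in the endoplasmic reticulum or when mitochondria fail. The same signal raises translation of ATF4, which binds C/EBP-ATF response elements in its target genes and induces amino acid synthesis and transport, the partner factor DDIT3 (CHOP) and a small number of secreted proteins that carry the stress signal out of the cell. GDF15, FGF21, ADM2 and INHBE are known targets of this kind, VLDLR is induced by ATF4 under endoplasmic reticulum stress, and NUPR1 is both a target and a partner of stress factors.

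The values were FPKM, sequenced fragments scaled to the length of the transcript and to the size of the library, so that levels of different genes can be set side by side. Depth was read from the size of 1 fragment in the low values of each library, which gave 28900000 to 36400000 fragments per library, with overlapping ranges in the groups. CSPP1 itself had a gene-level value of 9.54 ± 0.493 FPKM (SD, n = 3) under lentivirus-NC against 19.5 ± 4.44 FPKM under lentivirus-circCSPP1 (adjusted p = 0.0162), a value that does not separate the linear from the circular RNA. This call was lost without lentivirus-circCSPP1 replicate 3 or any 1 lentivirus-NC library (adjusted p = 0.0666 to 0.0754). Tests across genes used limma on log2(FPKM + 1), a scale that understates the change of low genes, with Benjamini-Hochberg adjusted p-values over the 12322 genes with a mean of 1 FPKM or more. A gene was called at an adjusted p under 0.05. Of the 12322 genes 1399 were called, 578 higher (4.69%) and 821 lower (6.66%) in lentivirus-circCSPP1, and the median log2 difference was -0.03. The gene lists below were written with earlier results of these data known. The shares called in them are therefore not independent evidence of a direction.

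The labelled cell type was checked on marker genes. The epithelial markers KRT8, KRT18, EPCAM, CDH1 and CDH3 were present in all libraries. All 5 were called lower in lentivirus-circCSPP1 (100%, beside 6.66% of all tested genes). The 6 listed epithelial markers had a summed level of 1834 to 1909 FPKM in lentivirus-NC and 745.5 to 895.8 FPKM in lentivirus-circCSPP1. The EPCAM call was lost without lentivirus-circCSPP1 replicate 3 or any 1 lentivirus-NC library (adjusted p = 0.0519 to 0.0845), and also without moderation of the variance. The other 4 calls were kept in each of these cases. The log2 differences of the 5 markers ran from -0.67 for EPCAM to -1.61 for CDH3. In a bulk library, fewer cells of a type and less RNA per cell cannot be told apart. Of the luminal prostate markers, KLK2 and KLK3 were listed at 0 in all 6 libraries and TMPRSS2 did not exceed 0.07 FPKM. The 13 markers of leukocytes, stroma, endothelium, neuroendocrine cells and liver summed to 6.45 to 9.20 FPKM in lentivirus-NC and 3.63 to 6.32 FPKM in lentivirus-circCSPP1, with CD3E listed at 0 throughout. Of these markers 3 had a level that could be tested, and 1 was called lower (33.3%, beside 6.66% of all tested genes). It was COL1A1, a collagen gene, from 3.26 to 1.15 FPKM (adjusted p = 0.0101, and 0.0504 without lentivirus-NC replicate 1). The COL1A1 call was also lost without moderation of the variance. The fall of the epithelial markers moves with the same groups as the stress genes below, and its part in their values was not tested.

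The position of the 6 genes and short stretches of their sequence are given first, because ATF4 acts through promoter elements and because the study concerned miR-520h, a microRNA that recognises matches to its seed in 3′ untranslated regions. In GENCODE release 29 (GRCh38), GDF15 lies on the plus strand at chr19:18374731-18389176 and FGF21 on the plus strand of the same chromosome at chr19:48755559-48758333. ADM2 lies at chr22:50481556-50486440, INHBE at chr12:57452323-57459280 and VLDLR at chr9:2621834-2660053, all on the plus strand, and NUPR1 lies on the minus strand at chr16:28532708-28539174. MIR3189 lies inside GDF15 on the same strand and VLDLR-AS1 opposite VLDLR. Neither is a row of the table, and whether fragments were counted by strand is not given in the sources used here, so their share in the values cannot be told apart.

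Promoters of 4 of the 6 genes (GDF15, ADM2, FGF21 and VLDLR) were found among 35116 RefSeq promoters (GRCh38.p14), each running from 250 bases before to 50 after a transcription start. A set of 7 short motifs was searched on both strands as exact letters, and the shares of all promoters with a match were 3.62% for the C/EBP-ATF response element (TGATGNAA), 24.6% for the core of the cAMP response element (TGACG), 7.71% for the AP-1 site (TGANTCA), 45.0% for the GC box (GGGCGG), 11.5% for the TATA box (TATAAA), 41.8% for the antioxidant response element (TGANNNNGC) and 0.0769% for the endoplasmic reticulum stress element. Only the FGF21 window among the 4 held a C/EBP-ATF response element, read on the opposite strand from -54 to -47 relative to the start. The GDF15 window held a TATA box at -29 to -24 an antioxidant response element at -61 to -53 and GC boxes at -70 to -65 and at -119 to -114, none of which overlapped another. The ADM2 window held 3 GC boxes and no other motif of the 7, and the VLDLR window 2 GC boxes, which overlapped each other, and 2 antioxidant response elements. The stretches below show, in capitals, the element of FGF21, the TATA box and a GC box of GDF15 and a GC box of ADM2, all written on the plus strand.
FGF21 (chr19:48755459-48755488): aaacaccaggaTTGCATCAgggaggaggag
GDF15 TATA box (chr19:18386117-18386146): aagtccggggacTATAAAggccggtccggc
GDF15 GC box (chr19:18386076-18386105): gcagggggaggaGGGCGGgactgagcaggc
ADM2 GC box (chr22:50481459-50481488): gcagccccctccCCGCCCcgagggtggctg
A match describes these letters in these windows and names no bound factor, and elements outside the 300 bases were not looked for.

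The mature miR-520h of RefSeq has 22 nt and is encoded on the plus strand at chr19:53742566-53742587. Its seed, bases 2 to 8, is in capitals in the line below.
hsa-miR-520h: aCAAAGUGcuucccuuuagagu
A match of 7 bases was counted where a 3′ untranslated region held CACTTTG or ACTTTGA. In the longest coding transcript of each gene, GDF15 (3′ untranslated region of 241 nt), FGF21 (110 nt) and INHBE (1160 nt) held no match, ADM2 (3537 nt) held 1, VLDLR (6185 nt) held 3 and NUPR1 (4975 nt) held 4. Of 19012 genes, 28.5% held at least 1 such match. The count depended on the transcript, since the shorter transcripts of ADM2 (535 nt in all) and NUPR1 (550 nt) held none and that of VLDLR (3240 nt) held 1. A match is shown for each of the 3 genes, with the bases opposite seed positions 2 to 7 in capitals, on the strand of the gene and with the position of the capitals.
ADM2 (chr22:50485938-50485943): tctgccgcgggcACTTTGttctcacggtgt
VLDLR first match (chr9:2654256-2654261): ctattcttaagcACTTTGaaaatatttcta
NUPR1 later match (chr16:28534847-28534852): aacatggcttccACTTTGaggcccaaaata
Of the 8 matches, 4 (50%) lay in a run of letters that belongs to Alu repeats, none of them among the lines shown, against 1684 of 8699 matches (19.4%) over all genes.

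NUPR1 and GDF15 were the pair with the highest ratios between the groups. NUPR1, a small chromatin-associated protein that cells make under starvation and endoplasmic reticulum stress, had FPKM values of 0.99, 1.25 and 1.0 in lentivirus-NC replicates 1, 2 and 3 and of 3.62, 3.03 and 3.60 in lentivirus-circCSPP1 replicates 1, 2 and 3. The groups stood well apart, and the lowest lentivirus-circCSPP1 library was 2.42 times the highest lentivirus-NC library. The means were 1.08 ± 0.147 and 3.42 ± 0.335 FPKM (SD, n = 3), a ratio of 3.16 and a difference of 1.09 on the log2(FPKM + 1) scale. The libraries of a group were close to each other, with an SD of 13.6% and 9.81% of the mean.

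GDF15, a distant member of the TGF-β family that lowers appetite through a receptor in the hindbrain and is a general marker of cell stress, had values of 0.54, 0.35 and 0.62 FPKM in lentivirus-NC against 3.11, 2.21 and 1.05 FPKM in lentivirus-circCSPP1. All 3 lentivirus-circCSPP1 libraries lay above all 3 lentivirus-NC libraries, but they were spread, and replicate 1 had 2.96 times the value of replicate 3. The means were 0.503 ± 0.139 and 2.12 ± 1.03 FPKM (SD, n = 3), a ratio of 4.22 and a log2 difference of 1.0. Without lentivirus-circCSPP1 replicate 1 the ratio was 3.24. With the coding transcript of 1200 nt and the depths above, these values correspond to 12.1 to 27.1 fragments per lentivirus-NC library and 36.4 to 121 fragments per lentivirus-circCSPP1 library, so counting error is a visible part of the lower values.

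ADM2 (intermedin), a peptide of the calcitonin family that widens blood vessels, was the most abundant of the 4 secreted factors in both groups. Its values were 8.58, 8.15 and 7.58 FPKM in lentivirus-NC against 19.69, 12.31 and 14.12 FPKM in lentivirus-circCSPP1. The groups did not overlap, and replicate 1 again stood highest in lentivirus-circCSPP1. The means were 8.10 ± 0.502 and 15.4 ± 3.85 FPKM (SD, n = 3), a ratio of 1.90 and a log2 difference of 0.82, and without replicate 1 the ratio was 1.63.

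FGF21, a hormone that the liver releases in fasting and that many cells make under mitochondrial stress, was near the lower limit of the table. It had values of 0.18, 0.22 and 0.15 FPKM in lentivirus-NC against 0.25, 0.23 and 0.31 FPKM in lentivirus-circCSPP1. The lowest lentivirus-circCSPP1 library exceeded the highest lentivirus-NC library by the smallest step of the table, which is rounded to 2 decimals. The means were 0.183 ± 0.0351 and 0.263 ± 0.0416 FPKM (SD, n = 3), a ratio of 1.44 and a log2 difference of 0.09, and depending on the transcript used these are 4.74 to 8.0 or 6.97 to 11.8 fragments per library. Of the 4 promoter windows searched, only that of FGF21 held a C/EBP-ATF response element, shown above, and its part in these values was not tested. FGF21 had the lowest mean of the 6 genes in lentivirus-NC, with libraries that overlapped those of INHBE. In lentivirus-circCSPP1 its mean lay above that of INHBE, again with overlap.

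INHBE encodes the subunit of activin E, which the liver secretes and which acts on fat tissue. Its values were 0.21, 0.39 and 0.37 FPKM in lentivirus-NC against 0.26, 0.16 and 0.18 FPKM in lentivirus-circCSPP1, or 12.6 to 32.7 fragments per library. The groups overlapped, and INHBE was the only one of the 6 with a lower mean in lentivirus-circCSPP1, at 0.200 ± 0.0529 against 0.323 ± 0.0987 FPKM (SD, n = 3), a ratio of 0.619 and a log2 difference of -0.14.

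VLDLR, the receptor for reelin and for lipoproteins that carry apolipoprotein E, was the most abundant of the 6 genes. Its values were 19.83, 17.04 and 19.81 FPKM in lentivirus-NC against 18.87, 19.29 and 19.37 FPKM in lentivirus-circCSPP1. The groups overlapped and their means, 18.9 ± 1.61 and 19.2 ± 0.269 FPKM (SD, n = 3), gave a ratio of 1.02 and a log2 difference of 0.02. The SD of the lentivirus-circCSPP1 libraries was 1.40% of their mean, and the lower mean of lentivirus-NC came with replicate 2, without which the log2 difference was -0.05.

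**Figure D1:**
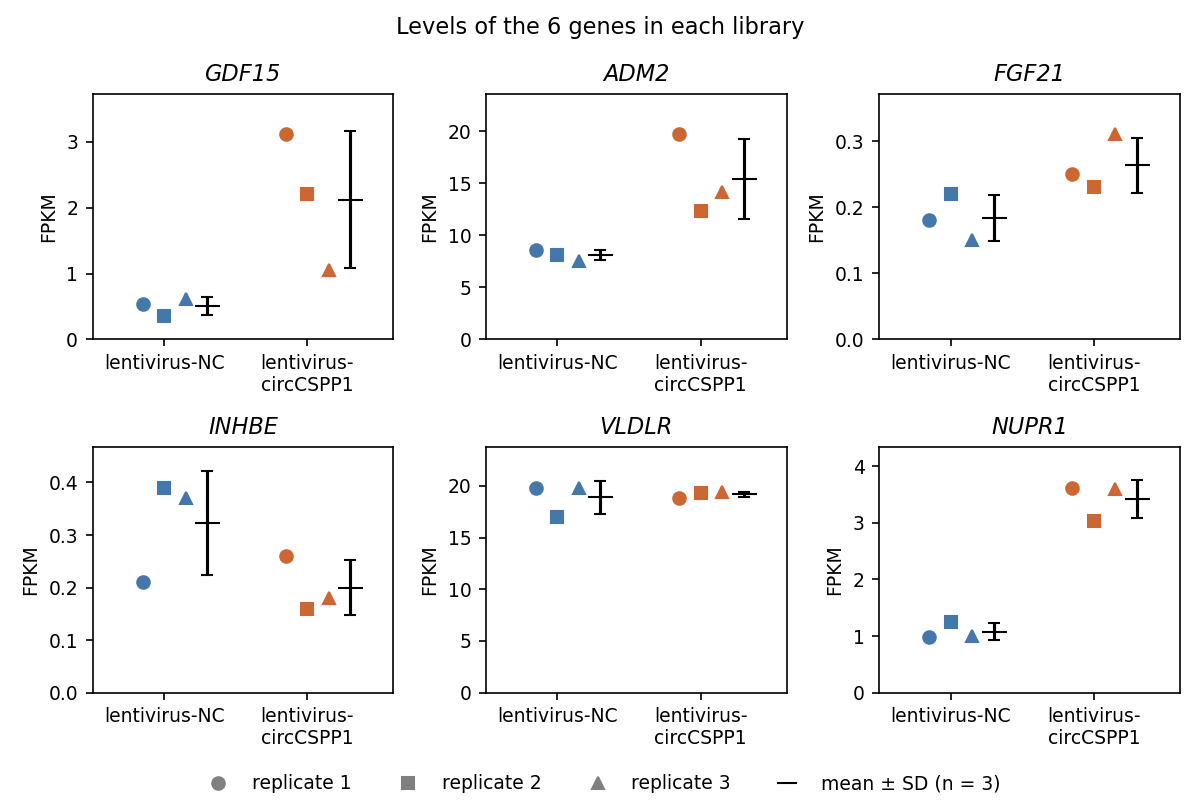
FPKM of each of the 6 genes in every library (points, 1 panel per gene, each with its own axis from 0), with the mean and SD of the 3 libraries of each group. NUPR1, GDF15, ADM2 and, by a small step, FGF21 had all lentivirus-circCSPP1 libraries above all lentivirus-NC libraries, while INHBE and VLDLR overlapped.

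Over the 6 genes, 4 had groups that did not overlap, all of them higher in lentivirus-circCSPP1, beside 10.8% of the 19727 genes of the table. Among genes with a mean of 0.1 to 0.5 FPKM, the range of FGF21 and INHBE, 4.44% were higher without overlap, and among the 12322 tested genes 16.0% were higher and 20.5% lower without overlap. Since the contrast chose the genes, nothing is read from these counts. GDF15, ADM2, VLDLR and NUPR1 had a mean of 1 FPKM or more and FGF21 and INHBE did not. GDF15 reached that mean, 1.31 FPKM over the 6 libraries, only through the group in which it was high.

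The order of the levels was nearly the same in both groups. In lentivirus-NC it ran VLDLR, ADM2, NUPR1, GDF15, INHBE and FGF21, and the libraries of GDF15 and INHBE and of INHBE and FGF21 overlapped. In lentivirus-circCSPP1 it ran VLDLR, ADM2, NUPR1, GDF15, FGF21 and INHBE, with overlap between VLDLR and ADM2, between NUPR1 and GDF15 and between FGF21 and INHBE. ADM2 thus reached the level of VLDLR in 1 lentivirus-circCSPP1 library, replicate 1, at 19.69 against 18.87 FPKM.

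**Figure D2:**
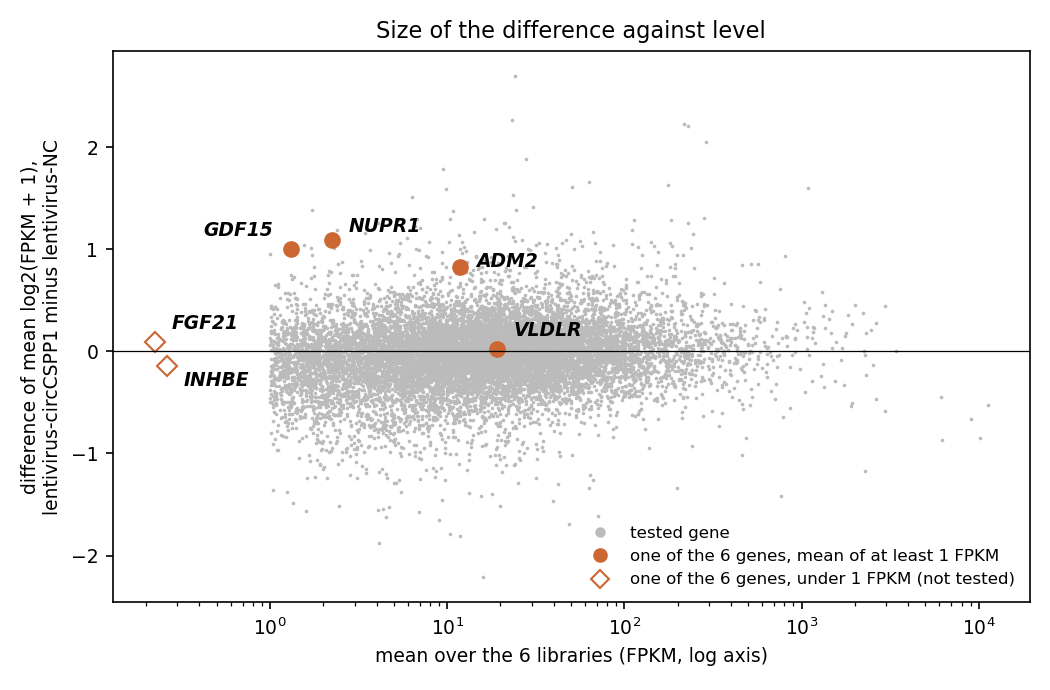
Log2 difference on log2(FPKM + 1), lentivirus-circCSPP1 minus lentivirus-NC (vertical axis), against the mean level over the 6 libraries (horizontal log axis, FPKM) for the 12322 tested genes in grey, with the 6 genes marked, FGF21 and INHBE as open diamonds. NUPR1 at 1.09 and GDF15 at 1.0 stand high at a low level, ADM2 at 0.82 at a middle level and VLDLR at 0.02 near the zero line.

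Lentivirus-circCSPP1 replicate 1 stood apart from the other libraries of its group by base composition. The departure of this library from the mean of replicates 2 and 3, on the log2 scale, rose with the GC content of the transcript, with a Spearman correlation of 0.786 across 12269 genes, given as a description since genes share the library. GDF15 (GC content 62.9%) and ADM2 (63.1%) are GC-rich, above 91.4% and 91.8% of the tested genes, and had departures of 0.68 and 0.54. NUPR1 (50.3%) and VLDLR (42.7%) had departures of 0.10 and -0.03. These GC contents are those of the longest coding transcript. For NUPR1 (5491 nt) and ADM2 (4276 nt) a much shorter one exists (550 and 535 nt), whose GC content was not computed. After a loess correction of each library for GC content and length, the log2 difference was 1.01 for GDF15, 0.89 for ADM2, 0.08 for VLDLR and 1.11 for NUPR1, and the departure of replicate 1 was 0.38 for GDF15, 0.22 for ADM2, 0.25 for VLDLR and 0.10 for NUPR1. The correction thus made the departure smaller for GDF15 and ADM2 and larger for VLDLR. The corrected GDF15 values were 1.84, 1.84 and 1.10 on the log2 scale in lentivirus-circCSPP1, so replicate 3 stayed lower than the others, and 0.62, 0.41 and 0.71 in lentivirus-NC.

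**Figure D3:**
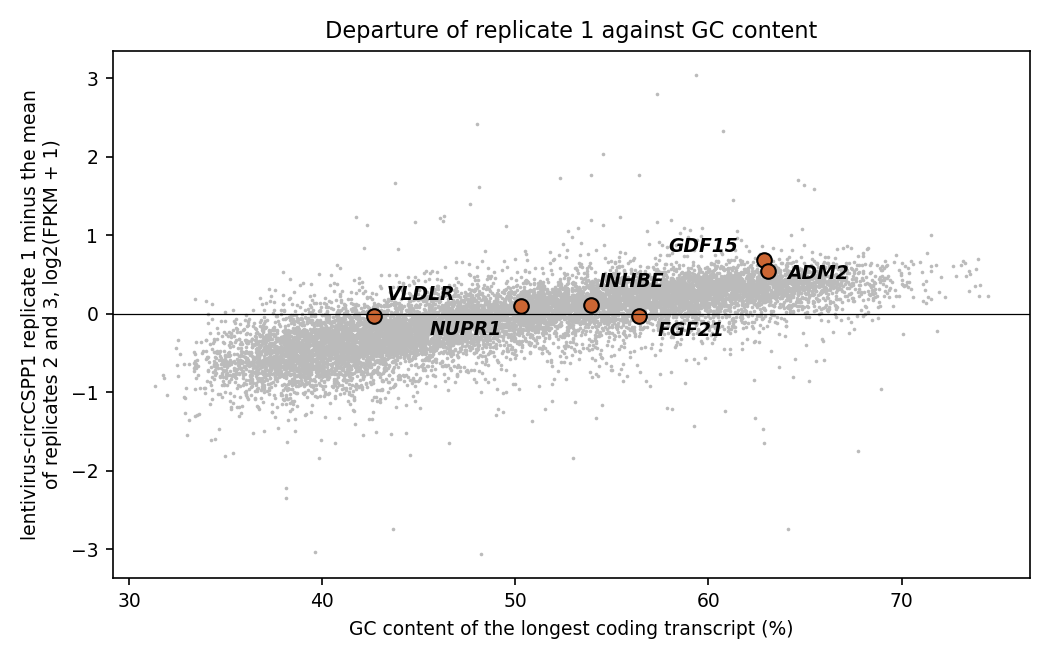
Departure of lentivirus-circCSPP1 replicate 1 from the mean of replicates 2 and 3 (log2, vertical axis) against the GC content of the longest coding transcript (percent, horizontal axis) for the tested genes, with the 6 genes marked. GDF15 and ADM2, at 62.9% and 63.1% GC, lie at 0.68 and 0.54, and NUPR1, at 50.3%, at 0.10.

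Among the 6 libraries the values on the log2 scale ran together for ADM2 and NUPR1 (Pearson r = 0.93), for GDF15 and ADM2 (0.885) and for GDF15 and NUPR1 (0.823), which reflects the group difference that chose the genes. Taken as deviations from the group means, r was 0.547, 0.506 and -0.263 for the same pairs. NUPR1 and GDF15 were both highest in lentivirus-circCSPP1 replicate 1. Replicate 3 had 3.60 FPKM of NUPR1, close to the 3.62 FPKM of replicate 1, and the lowest GDF15 value of its group. With 6 libraries that share their group and depth, these coefficients describe the libraries only.

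The hormones act through receptors, and 10 of the 17 receptors and coreceptors listed had a mean under 1 FPKM in these cells. GFRAL, the brainstem receptor of GDF15, was listed at 0 in all 6 libraries, and its signalling partner RET had means of 0.133 and 0.137 FPKM in lentivirus-NC and lentivirus-circCSPP1. CALCRL, the receptor that ADM2 uses together with a RAMP protein, had 0.0233 and 0.0600 FPKM. RAMP1, an accessory protein of CALCRL, had 6.48 ± 1.67 and 4.79 ± 0.761 FPKM (adjusted p = 0.277), RAMP2 had 0.557 and 0.210 FPKM and RAMP3 was 0 in all libraries but 1.

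FGF21 needs β-klotho, the product of KLB, beside an FGF receptor. KLB had values of 0.38, 0.32 and 0.31 FPKM in lentivirus-NC against 0.46, 0.67 and 0.65 FPKM in lentivirus-circCSPP1. The groups did not overlap, with means of 0.337 ± 0.0379 and 0.593 ± 0.116 FPKM (SD, n = 3), and the gene was under the level at which tests were run. FGFR1, the main FGF21 receptor, rose from 38.68, 38.47 and 32.20 FPKM in lentivirus-NC to 50.38, 55.67 and 50.05 FPKM in lentivirus-circCSPP1 (log2 difference 0.51, SE 0.104, adjusted p = 0.0238). FGFR4, which serves FGF19, fell from 34.41, 36.17 and 32.07 FPKM to 26.55, 20.83 and 21.15 FPKM (log2 difference -0.57, SE 0.119, adjusted p = 0.025). The groups did not overlap for either gene, but each call was lost without any 1 of 5 libraries, all but lentivirus-circCSPP1 replicate 1, with adjusted p-values of 0.0534 to 0.0953 for FGFR1 and 0.0548 to 0.119 for FGFR4, and neither was called without moderation of the variance or without the filter on low values. FGFR2 had 0.510 and 0.690 FPKM, FGFR3 1.07 and 0.830 FPKM, and KL 0.05 and 0.0333 FPKM, and these 3 overlapped between the groups.

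Of the activin receptors, ACVR1C, the type I receptor linked to activin E, had 0.360 and 0.163 FPKM in lentivirus-NC and lentivirus-circCSPP1. ACVR1B, the usual type I receptor of activins, had 16.2 and 18.6 FPKM (adjusted p = 0.829). The type II receptors had 1.25 and 1.38 FPKM for ACVR2A (adjusted p = 0.818), 0.997 and 1.18 FPKM for ACVR2B (adjusted p = 0.476) and 7.11 and 5.22 FPKM for BMPR2 (adjusted p = 0.18). Over the 17 receptors and coreceptors listed, 7 had a level that could be tested, 1 rose and 1 fell, or 28.6% of those tested beside 11.4% of all tested genes, and the median log2 difference was 0.07.

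**Figure D4:**
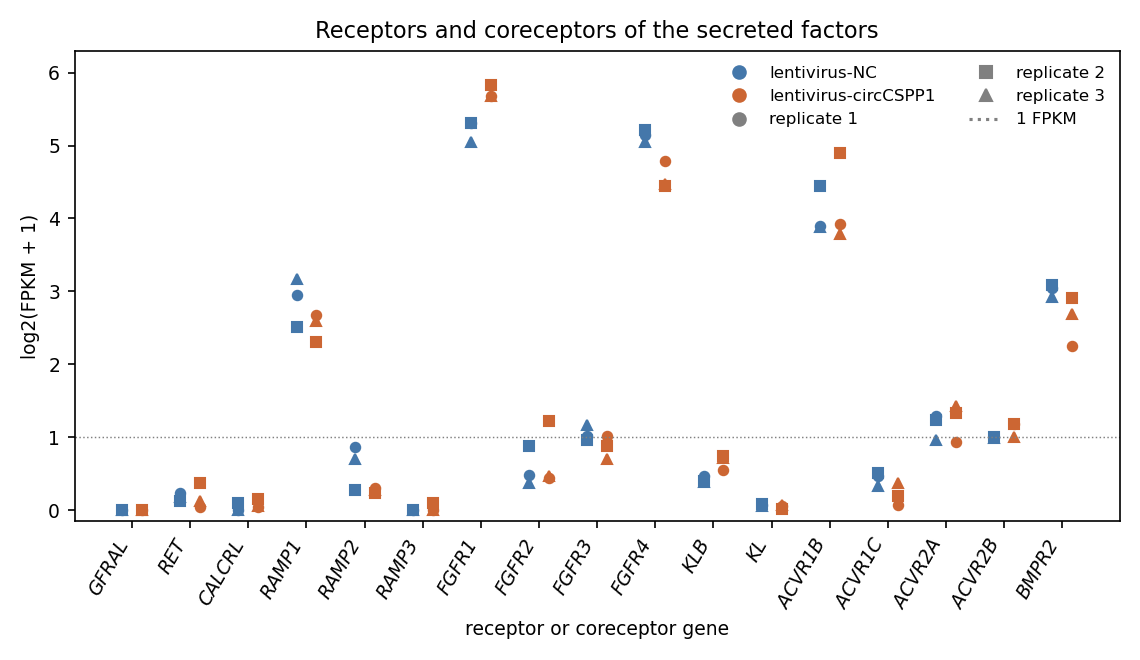
Level of the receptors and coreceptors of GDF15, ADM2, FGF21 and INHBE on an axis of log2(FPKM + 1), with each library as a point, coloured by group and shaped by replicate number, and a dotted line at 1 FPKM. FGFR1, FGFR4, ACVR1B, BMPR2 and RAMP1 are the receptors with means above 2 FPKM, and GFRAL lies at 0 in all 6 libraries.

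The close relatives of the 6 genes behaved differently from each other. ADM, the adrenomedullin gene and nearest relative of ADM2, rose from 1.68, 2.75 and 2.04 FPKM in lentivirus-NC to 5.51, 5.21 and 4.92 FPKM in lentivirus-circCSPP1 (log2 difference 0.99, SE 0.145, adjusted p = 0.00819), in a call kept without any 1 library. It was the only call among the 5 relatives that could be tested, out of 15 listed (20% called higher, beside 4.69% of all tested genes). LRP8, a reelin receptor related to VLDLR, had 52.8 and 48.9 FPKM in lentivirus-NC and lentivirus-circCSPP1 (adjusted p = 0.459). GDF11, of the TGF-β family like GDF15, had 10.5 FPKM in both groups, INHA, the inhibin subunit, had 1.52 and 1.59 FPKM (adjusted p = 0.984), and NUPR2, the relative of NUPR1, and CALCA were listed at 0 in all libraries.

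The proteins that cut or modify these factors and those that hold back activins were read next. None of the 4 tested processing enzymes was called by limma, FURIN among them at 77.3 and 68.2 FPKM (adjusted p = 0.353), and the number was 0 as well at an unadjusted p under 0.05 and without moderation of the variance. Among 4 tested inhibitors of activin signalling 2 were called, both lower (50%, beside 6.66% of all tested genes). FSTL3, a follistatin-like protein that binds activins, fell from 34.92, 37.02 and 32.99 FPKM to 26.34, 18.14 and 22.19 FPKM (log2 difference -0.65, SE 0.14, adjusted p = 0.0279), and TGFBR3, the betaglycan coreceptor of inhibin, fell from 2.56, 2.62 and 2.58 FPKM to 1.0, 1.17 and 1.2 FPKM (log2 difference -0.76, SE 0.101, adjusted p = 0.006). The TGFBR3 call was kept without any 1 library, and the FSTL3 call was lost without lentivirus-circCSPP1 replicate 3 or any 1 lentivirus-NC library (adjusted p = 0.0856 to 0.124), and TGFBR3 alone was called without moderation of the variance.

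None of the 6 tested partners and ligands of VLDLR was called by limma, with DAB2, an adaptor for its cytoplasmic tail, nearest to it (log2 difference -0.38, adjusted p = 0.0506). At an unadjusted p under 0.05 there were 3, all lower, and without moderation of the variance 1 was called lower. Of the 8 partners and targets of NUPR1, RELB, an NF-κB subunit that NUPR1 is known to induce, rose from 25.3 ± 1.57 to 47.2 ± 7.24 FPKM (log2 difference 0.87, adjusted p = 0.00748), and IER3, an early response gene downstream of RELB, rose from 137.7 ± 19.0 to 250.6 ± 42.1 FPKM (log2 difference 0.85, adjusted p = 0.0141). The other 6, PTMA and EP300 among them, were not called, so 25% of the 8 were called higher, beside 4.69% of all tested genes. Without moderation of the variance RELB alone was called, and the IER3 call was also lost without lentivirus-NC replicate 2 or 3 or lentivirus-circCSPP1 replicate 3 (adjusted p = 0.0566 to 0.0653).

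The regulators known to act on the 6 genes were mostly abundant, and 6 of the 14 tested rose while none fell by limma (42.9% called higher, beside 4.69% of all tested genes). Their median log2 difference was 0.34, and at an unadjusted p under 0.05 the numbers were 7 and 0. Without moderation of the variance, 4 (ATF4, DDIT3, CEBPG and EGR1) rose and 0 fell. The list was written with earlier results of these data known, so the share called is not independent evidence of a direction. ATF4 had 300.5, 301.53 and 285.74 FPKM in lentivirus-NC against 391.72, 380.39 and 396.2 FPKM in lentivirus-circCSPP1 (log2 difference 0.40, SE 0.0644, adjusted p = 0.0113), so that the groups stood apart at a modest ratio. This call was lost without lentivirus-circCSPP1 replicate 3 or any 1 lentivirus-NC library (adjusted p = 0.0611 to 0.0691). DDIT3 (CHOP), a partner and target of ATF4, rose from 24.40, 28.18 and 20.91 FPKM to 69.00, 84.85 and 75.27 FPKM (log2 difference 1.61, SE 0.131, adjusted p = 0.00148) and CEBPG, a further partner, from 23.6 to 47.3 FPKM (log2 difference 0.96, adjusted p = 0.00588).

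EGR1, the early growth response factor that can act on the GDF15 promoter, rose from 3.52 ± 0.699 to 9.58 ± 1.5 FPKM (log2 difference 1.23, adjusted p = 0.00588). NFE2L2 (NRF2), which binds the antioxidant response element, rose from 30.2 ± 11.4 to 63.2 ± 8.77 FPKM (log2 difference 1.09, adjusted p = 0.0285) and ATF3, a stress factor of the same family as ATF4, from 8.22 to 14.4 FPKM (log2 difference 0.77, adjusted p = 0.0453). The NFE2L2 call was lost without lentivirus-NC replicate 1 or 3 or lentivirus-circCSPP1 replicate 2 or 3 (adjusted p = 0.0649 to 0.112), and the ATF3 call without any 1 library other than lentivirus-circCSPP1 replicate 1 (adjusted p = 0.0675 to 0.144). XBP1, ATF6 and CEBPB were not called. Without lentivirus-NC replicate 1 or 3 or lentivirus-circCSPP1 replicate 3, 3 of the regulators were called, and 4 without lentivirus-NC replicate 2 or lentivirus-circCSPP1 replicate 2.

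Of 20 other known targets of ATF4, all of them tested, 16 rose and none fell by limma (80%, beside 4.69% of all tested genes). All 20 had a positive difference and an unadjusted p under 0.05, the median was 0.92 on the log2 scale, and 12 rose and 0 fell without moderation of the variance. The list is not independent evidence of a direction, since it was written with the rise of ATF4 targets in these libraries known. The highest differences were those of TRIB3, a pseudokinase that restrains ATF4 (2.22, adjusted p = 0.0012), PPP1R15A (GADD34), which restores translation (1.66, adjusted p = 0.000556), DDIT4, an inhibitor of mTORC1 (1.31, adjusted p = 0.00269), and the asparagine synthetase ASNS (1.29, adjusted p = 0.00286). They were followed by SESN2, a leucine sensor (1.25, adjusted p = 0.00129), SLC3A2, the heavy chain of amino acid exchangers (1.15, adjusted p = 0.00129), CHAC1, which breaks down glutathione (1.08, adjusted p = 0.00554), and NIBAN1 (1.03, adjusted p = 0.00464). TRIB3, for example, went from 92.86, 74.02 and 62.52 FPKM to 415.12, 338.94 and 321.06 FPKM. SLC7A5, XPOT, ATF5 and SHMT2 were not called (adjusted p = 0.107 to 0.151). The number called was 18 without lentivirus-circCSPP1 replicate 1 and 11 to 14 without any other library, lowest without lentivirus-NC replicate 2.

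Set beside this list, 3 of the 6 genes lay within its range and 3 below it. The differences of NUPR1 (1.09), GDF15 (1.0) and ADM2 (0.82) lay near its median (0.92), while FGF21 (0.09) and VLDLR (0.02) lay below each of the 20 targets, and INHBE (-0.14) was negative. Where GDF15 and NUPR1 fell in the list depended on the pseudocount, since log2(FPKM + 1) compresses differences at low levels, which concerns GDF15, NUPR1, FGF21 and INHBE. With a pseudocount of 0.1 the differences were 1.79 for GDF15 and 1.58 for NUPR1, against a median of 0.96 for the 20 targets, and FGF21, at 0.36, no longer lay below all of them.

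A list of 19 other secreted proteins known to respond to stress was read as well, and of the 16 tested 7 rose (43.8%, beside 4.69% of all tested genes) and 2 fell (12.5%, beside 6.66%). This list too was written with earlier results of these data known, so its shares are not independent evidence of a direction. IL24, a cytokine of the IL-10 family, rose from 5.44, 6.56 and 5.19 FPKM to 41.27, 43.01 and 43.17 FPKM (log2 difference 2.70, adjusted p = 8.49e-05). STC2, a stanniocalcin induced by endoplasmic reticulum stress, rose from 85.26, 84.76 and 73.07 FPKM to 384.48, 386.25 and 360.32 FPKM (log2 difference 2.21, adjusted p = 8.49e-05). In both genes the libraries of a group lay close together and far from the other group, at levels well above those of GDF15 and NUPR1.

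The other secreted proteins that rose were ADM, described above, ANGPTL4, an inhibitor of lipoprotein lipase (0.92, adjusted p = 0.0285), the chemokine CXCL8 (0.89, adjusted p = 0.019), the EGF receptor ligand AREG (0.74, adjusted p = 0.00369) and lipocalin LCN2 (0.59, adjusted p = 0.0452). The calls of ANGPTL4, CXCL8 and LCN2 were lost without lentivirus-circCSPP1 replicate 3 or any 1 lentivirus-NC library, with adjusted p-values of 0.0878 to 0.109, 0.0652 to 0.0833 and 0.102 to 0.162. IL6, an inflammatory cytokine, fell from 20.72, 23.06 and 13.43 FPKM to 4.67, 3.92 and 5.26 FPKM (log2 difference -1.81, adjusted p = 0.0039), and MANF, a protein of the endoplasmic reticulum lumen released on unfolded protein stress, fell from 58.1 ± 4.82 to 28.4 ± 5.67 FPKM (log2 difference -1.02, adjusted p = 0.00951). The MANF call was lost without lentivirus-NC replicate 2 (adjusted p = 0.0555). Without lentivirus-circCSPP1 replicate 3 or any 1 lentivirus-NC library, 4 or 5 of the list rose and 1 or 2 fell, and without moderation of the variance the calls were those of IL24, STC2, ADM, AREG and IL6.

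**Figure D5:**
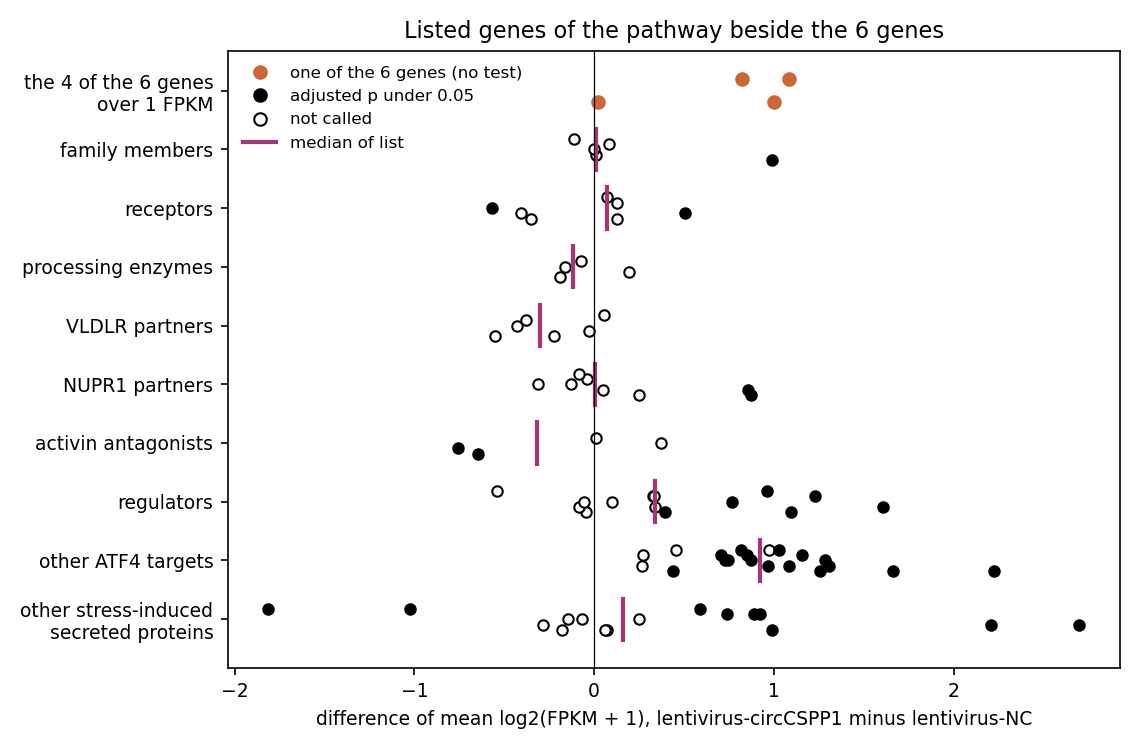
Log2 difference (lentivirus-circCSPP1 minus lentivirus-NC, on log2(FPKM + 1)) of each tested gene of the lists (points, 1 row per list), with called genes filled, a bar at each median and the 4 of the 6 genes with a mean of 1 FPKM or more in a row of their own. The 20 other ATF4 targets all lie right of 0, with 16 called, while the 4 genes run from 0.02 (VLDLR) to 1.09 (NUPR1).

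The nearest protein-coding genes were read as a check on the position of the 6 genes. NUPR1 has SGF29, a chromatin reader, at a distance of 14741 bp, and SGF29 had 8.88, 8.13 and 7.24 FPKM in lentivirus-NC against 13.49, 12.39 and 12.08 FPKM in lentivirus-circCSPP1 (log2 difference 0.59, SE 0.113, adjusted p = 0.0189). It was the only neighbour called among the 5 that could be tested, while 4.69% of all tested genes were called higher. The call was lost without lentivirus-circCSPP1 replicate 3 or any 1 lentivirus-NC library (adjusted p = 0.0653 to 0.0903). On the other side IL27, at 20657 bp, was listed at 0 in all libraries.

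GDF15 lies between PGPEP1, a peptidase gene at 4781 bp, and LRRC25, at 1968 bp and listed at 0 in all libraries. PGPEP1 had 8.58, 6.23 and 7.94 FPKM in lentivirus-NC against 1.39, 7.34 and 7.80 FPKM in lentivirus-circCSPP1 (adjusted p = 0.443). Only replicate 1, which also had the highest GDF15 value, lay below the lentivirus-NC range of PGPEP1. GDF15 was above its lentivirus-NC range in every lentivirus-circCSPP1 library. FGF21 has FUT1, a fucosyltransferase gene, at 169 bp on the opposite strand. FUT1 had 0.75, 0.90 and 0.54 FPKM in lentivirus-NC against 1.11, 1.25 and 1.06 FPKM in lentivirus-circCSPP1, without overlap and under the level for a test, and the other neighbour BCAT2, at 36729 bp, had an adjusted p of 0.89.

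INHBE lies 1495 bp from INHBC, the gene of the activin C subunit, which had 0.13, 0.19 and 0.23 FPKM in lentivirus-NC against 0.47, 0.33 and 0.25 FPKM in lentivirus-circCSPP1. The means of these adjacent and related genes differed in opposite directions, and only INHBC was without overlap. Both were under the level for a test, and 4.44% of genes with a mean of 0.1 to 0.5 FPKM were higher without overlap. GLI1, on the other side of INHBE at 855 bp, had 1.22 and 0.743 FPKM with overlap. For ADM2 the neighbours were SBF1 (6532 bp, adjusted p = 0.612) and MIOX (344 bp, at most 0.18 FPKM), and for VLDLR they were SMARCA2 (428210 bp, adjusted p = 0.726) and KCNV2 (57449 bp, at most 0.16 FPKM).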

How the data were processed

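DU145 libraries of polyadenylated RNA (3 lentivirus-NC, 3 lentivirus-circCSPP1) were grouped by their titles. The authors deposited 1 table of FPKM values rounded to 2 decimals; the submitters' processing notes name hg38, and the aligner, the FPKM program and the annotation are not given in the sources used here. Since FPKM is not a count, limma 3.58.1 in R 4.3.3 was run on log2(FPKM + 1) (lmFit, then eBayes with a mean trend and no covariate, two-sided, Benjamini-Hochberg adjustment) for the 12322 genes averaging 1 FPKM or more. An exact permutation test of 3 against 3 libraries cannot give a two-sided p below 0.1. In simulated data on these 12322 genes, 97.5% of 200 genes changed by 2 on the log2 scale were called, and 0.099% of the others. The simulated noise was independent between genes and held no shift by GC content, and most differences reported here are smaller than 2. These rates therefore need not hold for the real libraries.

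The 6 genes and all lists were chosen with earlier results of these data known. Named genes are the 6, all receptors listed, the called genes of each list (the 8 with the largest differences where more were called), the nearest protein-coding genes and, for each of the 6, the 3 tested genes with the highest Pearson r; any other gene was named once its values had been seen. INHA and ADM stand in 2 lists each. Some items are not reported here. Lengths, GC content (longest coding transcript), 3′ untranslated regions and positions came from GENCODE release 29, where 19517 of the 19727 genes had a coding transcript, which may not be the authors' annotation. Depth was read in 46 to 61 low values per library, 91.1% to 98.0% of them within 0.15 of a whole number of fragments. The number of unused columns with values of single samples was 0. Promoters and the microRNA came from RefSeq (GRCh38.p14); INHBE and NUPR1 had no entry among the promoters. Protein sequences were not used here.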

Additional observations from a re-analysis of the deposited data

How the results depend on the processing

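The alternatives were pseudocounts of 0.1 and 0.01, no filter, a mean of at least 5 FPKM, no variance moderation, quantile normalization, median-ratio scaling, TPM rescaling, the replicate number as a block, a loess correction for GC content and length, and leaving out each library. The 1399 genes called became 834 without moderation and 3525 (1816 higher, 1709 lower) with the GC and length correction, and 293 to 3514 when 1 library was left out (293 without lentivirus-NC replicate 1, 309 without 2, 404 without 3, 3514 without lentivirus-circCSPP1 replicate 1, 460 without 3). The 37 pathway genes called became 24 without moderation and 22 to 45 when 1 library was left out. The log2 difference of GDF15 was 1.79 and 1.96 with the pseudocounts of 0.1 and 0.01, that of NUPR1 1.58 and 1.66, that of FGF21 0.36 and 0.51, and that of INHBE -0.48 and -0.65. TPM rescaling gave 0.145 for FGF21 and 1.27 for NUPR1, and quantile normalization 0.16 and 1.21. With 1 library left out the differences were 0.78 to 1.28 for GDF15, 0.64 to 0.96 for ADM2, 0.07 to 0.12 for FGF21, -0.20 to -0.10 for INHBE, 1.05 to 1.15 for NUPR1 and -0.05 to 0.06 for VLDLR, the only one of the 6 to change sign. Apart from the alternatives' own construction (smaller numbers of libraries, another pseudocount), the cause of these shifts was not tested. The fits without a library have 2 libraries in 1 group, and the GC correction could not be run for FGF21 and INHBE, which were under the filter.

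Same-numbered libraries of the groups deviated together with correlations of 0.0734, 0.00653 and 0.0572, and not every library correlated best with its own number, so the numbers were not taken to pair the samples. With the replicate block 923 genes and 34 of the pathway genes were called, with ATF3, JDP2 and LCN2 losing the call. Of the 43 listed genes called, markers included, 24 kept the call under every alternative that tested them, 19 lost the call under at least 1, and none changed direction. Among the 24, ADM and TGFBR3 had means under 5 FPKM and were not tested with the filter at that level. Depth limits FGF21, INHBE and the lower GDF15 values, which rest on at most 32.7 fragments per library. NUPR1 was not converted to fragments. Its coding transcripts have 550 and 5491 nt, so the number would depend on the transcript, and with the shorter 1 the lentivirus-NC values would rest on few fragments as well.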

Other observations

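For each of the 6 genes, the tested genes whose values ran most nearly with it over the 6 libraries were looked up by Pearson r on log2(FPKM + 1). With 6 libraries and 12322 genes high coefficients are easily found, the genes share depth, group and base composition, and the values are a description of the libraries. For NUPR1 they were TRNP1 (r = 0.998), KIAA0355 (0.998) and C19orf25 (0.997). TRNP1, which encodes a nuclear protein of neural progenitors, had 178.98, 192.96 and 183.86 FPKM in lentivirus-NC and 256.92, 240.57 and 258.95 FPKM in lentivirus-circCSPP1, with lentivirus-circCSPP1 replicate 2 lowest in its group as for NUPR1.

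For GDF15 they were MAP2K3 (0.995), TFAP4 (0.991) and SAFB2 (0.988). MAP2K3, a kinase that activates p38, had 80.18, 77.35 and 82.01 FPKM in lentivirus-NC and 142.21, 128.34 and 92.34 FPKM in lentivirus-circCSPP1, and so shared the low value of replicate 3. For ADM2 they were IRF2BPL (0.999), LONP1 (0.999) and MGAT4B (0.997). LONP1, the protease of the mitochondrial matrix, had 134.6, 133.13 and 124.52 FPKM in lentivirus-NC and 260.59, 180.13 and 193.93 FPKM in lentivirus-circCSPP1, with the high value of replicate 1 that ADM2 also showed.

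FGF21 ran most nearly with SERINC4 (0.984), ZNF268 (0.984) and FRAT2 (0.982), INHBE with PAAF1 (0.992), ZFP92 (0.99) and SCFD2 (0.985), and VLDLR with COPZ1 (0.984), CREB3L2 (0.968) and ZFP64 (0.967). COPZ1, a coat protein of Golgi vesicles, had 167.64, 109.23 and 169.17 FPKM in lentivirus-NC and 151.42, 167.55 and 165.22 FPKM in lentivirus-circCSPP1, so that the likeness to VLDLR lay in the low value of lentivirus-NC replicate 2.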
